A study of Mus musculus with 15 samples.

Results

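The genes for the proteins of the cytosolic ribosome were examined on arrays of heart apex RNA from males of 3 mouse strains. Members were taken by symbol: Rpl or Rps followed by a digit, with Rplp0, Rplp1, Rplp2, Rpsa and Fau, and without the Rps6k kinases and pseudogenes. Of 18190 genes with a probe set that carries 1 gene symbol, 51 met this rule. The 26 whose symbol starts with Rpl were counted as large subunit. The other 25, Fau and Rps19bp1 among them, were counted as small subunit. The 51 members lie on 18 chromosomes. The symbol rule also took in Rps19bp1, whose product binds the ribosomal protein S19 and is not itself a subunit protein. The arrays were from C57Bl/6 (C57BL/6J) and C3H (C3H/HeJ), which are inbred strains, and from B6C3F1 (B6C3F1/J), the first-generation cross between them, with 5 mice and 1 array each. No group carried a transgene or received a treatment. All mice had been implanted with an abdominal radiotelemetry transmitter under anaesthesia at 7 weeks of age, and were killed with CO2 at 9 to 10 weeks. The study set gene expression beside the cardiac physiology and pathology of these strains.

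A ribosome is built from ribosomal RNA and from ribosomal proteins, of which each is in general present once per subunit. The small subunit reads the messenger RNA and the large subunit joins the amino acids, while the stalk of acidic P proteins on the large subunit recruits the elongation factors. Most ribosomal protein messages start with a run of pyrimidines, the terminal oligopyrimidine (TOP) tract, through which mTORC1 signalling adjusts their translation. In striated muscle some core proteins have a close relative with a muscle-restricted pattern, of which Rpl3l beside Rpl3 is the best known.

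The sequence around the annotated transcription start is shown for chosen members, some of which passed in no contrast. The pyrimidine run at the start is what this gene family is known to share. The windows are from RefSeq on GRCm38.p6, run 5′ to 3′ on the transcribed strand and hold 24 bases before and 16 bases from the start onward. Capitals mark the longest unbroken run of C and T in the window. Of the small subunit members that differed between the parental strains, Rps6, Rps26 and Rps25 come first (no window was matched for Rps20), then the fusion gene Fau, the stalk genes, and 2 genes with a close relative.
Rps6, chr4:86857352-86857391, minus strand: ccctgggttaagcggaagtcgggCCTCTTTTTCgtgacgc
Rps26, chr10:128626491-128626530, minus strand: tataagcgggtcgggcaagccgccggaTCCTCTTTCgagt
Rps25, chr9:44407690-44407729, plus strand: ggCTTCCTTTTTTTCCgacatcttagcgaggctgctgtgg
Fau, chr19:6057923-6057962, plus strand: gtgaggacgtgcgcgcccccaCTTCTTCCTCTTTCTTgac
Rplp2, chr7:141447627-141447666, plus strand: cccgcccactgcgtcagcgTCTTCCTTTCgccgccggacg
Rplp0, chr5:115559443-115559482, plus strand: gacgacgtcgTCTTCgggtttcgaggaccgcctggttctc
Rpl22l1, chr3:28805484-28805523, plus strand: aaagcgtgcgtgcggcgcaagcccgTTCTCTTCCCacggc
Rpl3l, chr17:24727802-24727841, plus strand: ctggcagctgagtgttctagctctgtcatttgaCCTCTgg
The run spanned the annotated start in Rps6, where it began 1 base before it and was 10 bases long, and in Fau, where it began 3 bases before it and was 16 bases long. It also spanned the start in Rplp2, where it began 5 bases before it and was 10 bases long. In Rps26 it began at base 4 of the transcript. In Rps25 it lay wholly before the start. The first of 2 windows of Rpl3l held no run longer than 5 bases. RefSeq windows were matched for 45 members, 53 windows in all. A run of at least 8 bases made only of C and T, searched on the transcribed strand alone, was present in 21 of the 53 windows (39.6%) and in 5422 of all 32851 windows of this length (16.5%). Most of the windows printed above held such a run, so that they do not stand for the members as a whole. The windows of Rps19, Rpsa and Rpl22, which are not printed, held none. The window began transcription with a C in 30.2% of member windows and 16.3% of all windows. A run of letters in an annotated window is a description and no measurement of translation.

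The arrays were scaled alike, with a 2% trimmed mean signal between 500.26 and 500.28 on the linear scale. All 8 cardiomyocyte markers, which define heart muscle, were above the dim filter, and their mean log2 signal lay between 15.39 and 15.99 on every array. The levels below are log2(signal + 16), in which 16 is a pseudocount, and a difference of 1 is 2-fold. For each gene the brightest of its probe sets stands for it. Signals of different genes are not compared, because the brightness of a probe set depends on its probes. Of the 51 members, 50 passed the dim filter at 5.74. Rps16 was the exception, with a mean of 4.26, and the dimmest members that passed were Rpl12 (6.18) and Rpl39l (6.46). In whole tissue, fewer cells of a type and less RNA per cell cannot be told apart.

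The first comparison was between the parental strains. Small subunit genes, 4 in number, differed between C3H and C57Bl/6 hearts at a Benjamini-Hochberg adjusted p under 0.05 in the limma fit. Rps6 was 2.70-fold lower in C3H, while Rps26, Rps20 and Rps25 were 1.38-fold, 1.29-fold and 1.42-fold higher. These are differences in probe set signal, and whether the probes match the sequence of both strains alike was not tested. No large subunit member passed among those tested. Another 31 ribosomal protein symbols, which occur only on probe sets with several symbols, were not counted. In a limma fit of all probe sets, 20% of the sets of that kind passed, against 12.7% of all sets. The 4 members were 8% of the 50 tested, against 15.7% of all 13111 genes, of which 7.25% were higher and 8.4% lower. At an unadjusted p under 0.05 there were 12 members, and 27.9% of all genes. With all arrays the share of members called was thus below that of all genes, a difference that was not tested and that turned when 1 array was left out: the member share was 20% against 16.2% of all genes without C57Bl/6 replicate 2, and 20% against 17.3% without C3H replicate 1.

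Rps6 encodes the small subunit protein that S6 kinases phosphorylate downstream of mTORC1. Its log2 signals in replicates 1 to 5 were 10.41, 10.42, 10.36, 10.37 and 10.56 in C57Bl/6, 10.13, 10.23, 9.93, 10.00 and 10.01 in B6C3F1, and 8.72, 9.71, 8.84, 8.72 and 8.95 in C3H. All C3H arrays lay below all B6C3F1 arrays, and these lay below all C57Bl/6 arrays, with C3H replicate 2 above the other C3H arrays. The difference between C3H and C57Bl/6 was -1.43 (SE 0.15, n = 5 and 5, adjusted p = 7.32e-07 in limma). Without C3H replicate 2 it was -1.61. Across the alternative settings tried the adjusted p of this difference was at most 2.58e-05.

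Rps6 has a second probe set with 1 symbol, which was below the dim filter in the mean (5.19 in C57Bl/6, 5.00 in B6C3F1 and 4.99 in C3H). Another 9 tested probe sets list Rps6 among several symbols. With every probe set tested in one limma fit, 2 of these 9 were higher and 1 was lower in C3H, their differences ran from -1.22 to 0.84, and their median was 0.05. The lower level of Rps6 in C3H therefore rests on 1 probe set of its own and was not shared by most sets that include it.

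Rps26 encodes a protein at the exit of the messenger RNA channel. It read 12.84, 12.54, 12.90, 12.80 and 12.79 in C57Bl/6, 13.09, 13.02, 12.89, 13.17 and 13.16 in B6C3F1, and 13.01, 13.22, 13.48, 13.16 and 13.33 in C3H. Every C3H array was above every C57Bl/6 array, and the B6C3F1 arrays overlapped with both. The difference of 0.47 (SE 0.10, adjusted p = 0.00164 in limma) passed in each alternative setting, with an adjusted p of at most 0.00857. Of the members, 2 had parental arrays that did not overlap, Rps6 and Rps26, against 11.2% of all genes.

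Rps20 encodes a protein of the small subunit head. It read 14.22, 14.54, 14.26, 14.24 and 14.31 in C57Bl/6, 14.43, 14.81, 14.63, 14.71 and 14.46 in B6C3F1, and 14.51, 14.80, 14.72, 14.70 and 14.70 in C3H. C57Bl/6 replicate 2 was the only C57Bl/6 array above the lowest C3H array. The difference was 0.37 (SE 0.09, adjusted p = 0.00686 in limma). The probe set belongs to the _x_at class, whose probes can match other transcripts. A second _x_at set of Rps20 differed by 0.45 (adjusted p = 0.00407 over all probe sets). Without this class Rps20 is represented by a dim set that differed by 0.14 (adjusted p = 0.838).

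Rps25 encodes a protein of the small subunit head that some viral internal ribosome entry sites require. It read 8.34, 8.44, 8.07, 8.24 and 8.07 in C57Bl/6, 8.44, 8.75, 8.79, 8.26 and 8.87 in B6C3F1, and 8.61, 9.09, 8.35, 8.49 and 9.15 in C3H. The parental arrays overlapped, through C3H replicate 3. The difference was 0.50 (SE 0.17, adjusted p = 0.0479 in limma), close to the threshold. It did not pass without any 1 of B6C3F1 replicates 1, 2 and 3, C3H replicates 2 and 5, and C57Bl/6 replicates 1, 3, 4 and 5, with adjusted p between 0.0544 and 0.128. It also failed with no dim filter (0.0747), without a trend (0.0633), with only the parental arrays in the fit (0.0652), with the Gapdh ratio as a covariate (0.0657), with the poly-A control signal as one (0.0851) and with every probe set in the fit (0.0576).

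**Figure D1:**
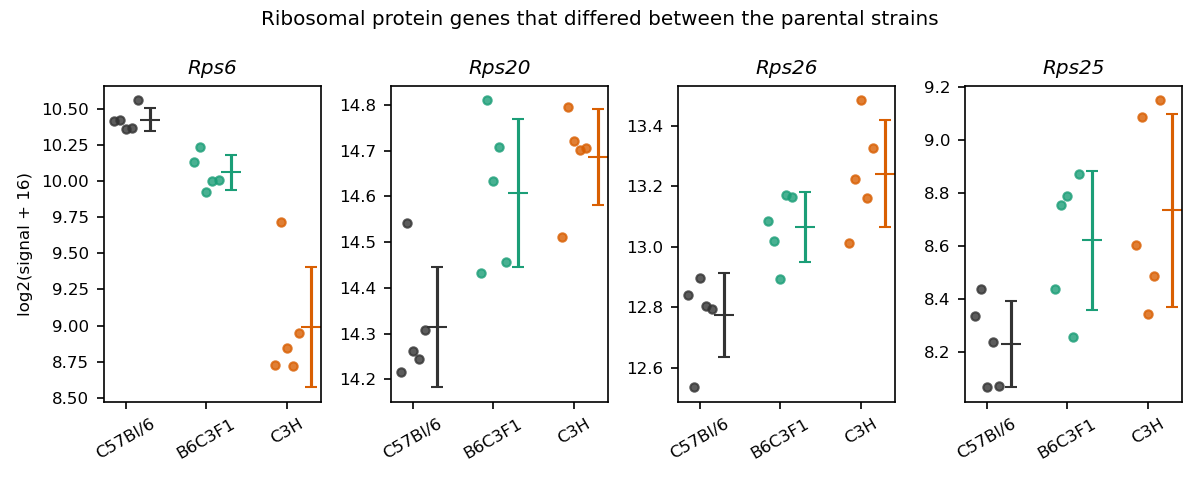
Log2(signal + 16) of the 4 small subunit genes that passed between the parental strains, with 1 point per array (5 per strain) and, to the right of the points, the strain mean with bars of 1 SD; each panel has its own y axis, which does not start at 0. The Rps6 arrays form 3 separate groups, with C3H at 8.72 to 9.71, while in Rps20, Rps26 and Rps25 the C3H mean is 0.37 to 0.50 above that of C57Bl/6.

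The count of 4 depended on single arrays. Without C57Bl/6 replicate 2 it was 10, with 9 higher and 1 lower in C3H, and without C3H replicate 1 it was also 10, with 8 higher and 2 lower. Fau, Rpl37a, Rps15, Rps19bp1 and Rps27l were added in both cases, Rpl14 in the first and Rpl8, which was lower, in the second. With all arrays these members differed by 0.39 (Fau, adjusted p = 0.105), 0.58 (Rpl37a, 0.155), 0.49 (Rps15, 0.0912), 0.44 (Rps19bp1, 0.0647) and 0.49 (Rps27l, 0.171), and none passed. Over all genes, 2129 and 2276 passed without these arrays, against 2052 with all arrays. Rps15, Rps19bp1, Rpl14 and Rpl8 are named with their values already known.

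Of the 46 members that were not called, 8 had an unadjusted p under 0.05 in limma, with differences of 2.11 to 2.80 standard errors. Together with the called members these were 12 of 50, against 27.9% of all genes. The median difference over the 50 members was 0.08, against -0.02 over all genes, and 64% of members were above 0, against 47.5% of all genes. The range ran from -1.43 in Rps6 to 0.58 in Rpl37a. The median was 0.06 in the large subunit and 0.11 in the small subunit. With every array centred on its own median the members had a median of 0.19 and all genes one of 0.08, a shift of both by about the same amount. The 95% interval of the difference lay within 1.5-fold in both directions for 32 members (64%), against 46.6% of all genes. For Rps6 the interval lay wholly beyond 1.5-fold (-1.74 to -1.12). For the remaining members a difference of that size could not be bounded with 5 arrays per strain. The median standard error was 0.12 for members and 0.16 for all genes.

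**Figure D2:**
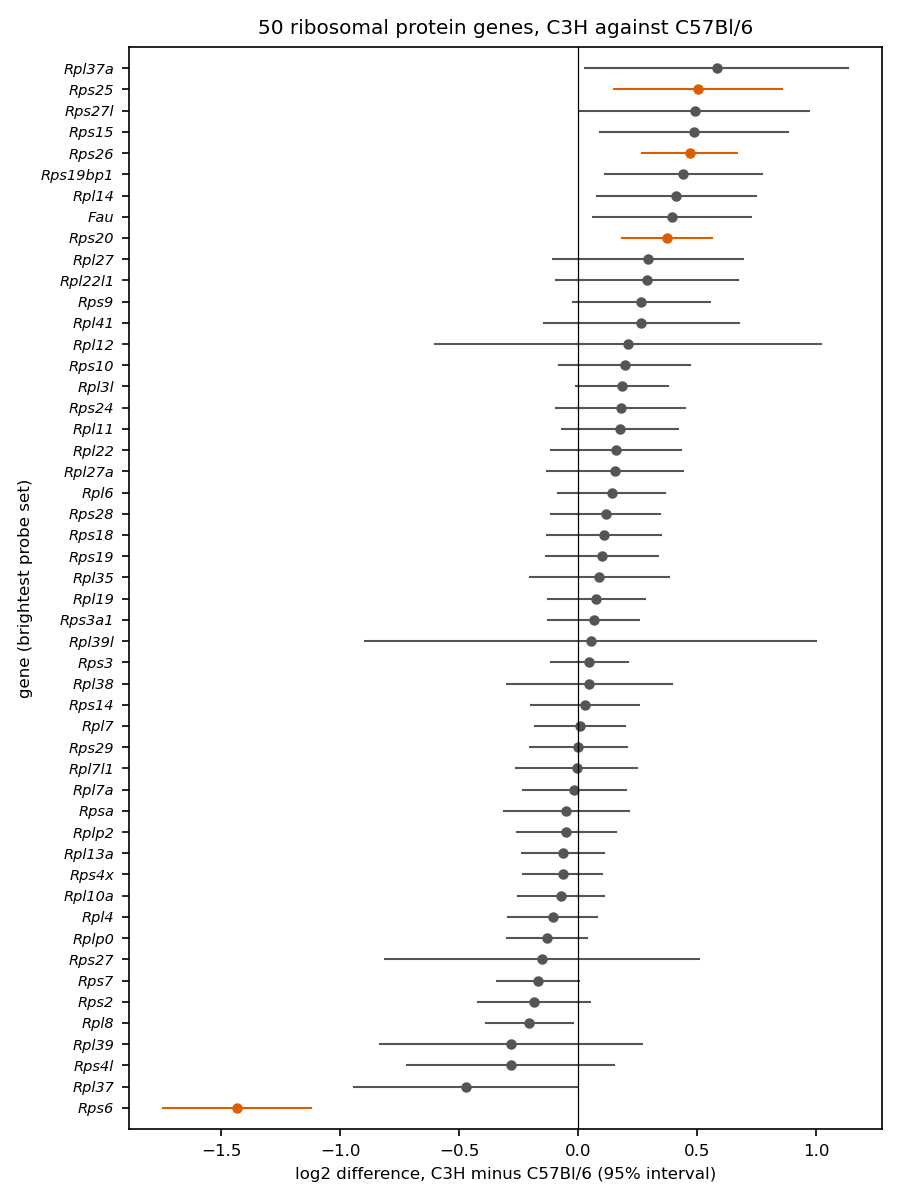
Log2 difference of C3H minus C57Bl/6 (x axis) for the 50 tested members, ordered by its size, with 1 point per gene and a line for its 95% interval; orange marks the 4 genes with an adjusted p under 0.05. Rps6 stands at -1.43 and the other members lie between -0.47 (Rpl37) and 0.58 (Rpl37a).

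The next question was where the cross lies between its parents. Rps6 was the only member that differed between B6C3F1 and C3H hearts: it was 2.10-fold higher in the cross (1.07, SE 0.15, adjusted p = 1.17e-04 in limma), with no overlap of the arrays. That is 1 of 50 members, against 6.2% of all genes called (3.58% higher and 2.62% lower in the cross) and 6.4% without overlap. The other member without overlap in this comparison was Rpl3l, with a difference of -0.26 (adjusted p = 0.106), where the closest arrays of both groups read 13.65. Of the 50 members, 0 passed in limma between B6C3F1 and C57Bl/6, where 3.83% of all genes did (2.06% higher and 1.77% lower in the cross). At an unadjusted p under 0.05 there were 14 members of 50, against 20.3% of all genes. Rps6 read -0.36 in the cross relative to C57Bl/6 (adjusted p = 0.173), and its arrays and those of Rpl8 (-0.23, adjusted p = 0.142) did not overlap between these groups. The share of all genes without overlap there was 6.16%.

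Against the midparent, which is the mean of both parental log2 means, 0 members passed in limma, compared with 0.633% of all genes (0.481% higher and 0.153% lower). At an unadjusted p under 0.05 there were 5 members, against 14.7% of all genes. Rps6 in the cross was 0.35 from the midparent (SE 0.13, adjusted p = 0.211), on the side of C57Bl/6. It passed only without C3H replicate 2, at 0.44 (adjusted p = 0.0156). Rps26 (0.06), Rps20 (0.11) and Rps25 (0.14) had adjusted p-values from 0.545 to 0.783 against the midparent. The contrasts share arrays, so that they are not independent of each other.

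The count of 0 between B6C3F1 and C57Bl/6 was also set by single arrays. It became 7 without C57Bl/6 replicate 2, 5 without B6C3F1 replicate 5, 2 without C3H replicate 1 and 1 without C3H replicate 2. These are 14%, 10%, 4% and 2% of the members, against 6.3%, 6.18%, 5.49% and 3.48% of all genes, so that the member share was above that of all genes in the first 2 cases. All of the first 3 sets were higher in the cross and held Rps15, and the last was Rps6, which was lower. Rps15, chosen after its values were seen, encodes a small subunit head protein. It read 12.90, 13.84, 13.14, 12.96 and 13.35 in C57Bl/6, 14.07, 14.11, 13.87, 13.97 and 13.28 in B6C3F1, and 13.10, 13.81, 13.79, 13.91 and 14.03 in C3H. One array stood against its strain in each group: replicate 2 was high in C57Bl/6, replicate 5 was low in B6C3F1 and replicate 1 was low in C3H. With all arrays the cross differed from C57Bl/6 by 0.62 (SE 0.19, adjusted p = 0.0698 in limma).

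The stalk genes were close to level across strains. Rplp0, the scaffold of the stalk, read from 14.95 to 15.15 in C57Bl/6 with a median of 15.05, while its strain means were 15.04, 15.01 and 14.91 in C57Bl/6, B6C3F1 and C3H. The parental difference was -0.13 (95% interval -0.30 to 0.04, adjusted p = 0.312). Rplp2, one of the acidic proteins that bind Rplp0, differed by -0.05 (-0.26 to 0.16, adjusted p = 0.794). Rplp1, its partner, was not analysed here. Rpsa, a small subunit protein also known as the laminin receptor precursor, differed by -0.05 (-0.31 to 0.21, adjusted p = 0.844). These intervals lay within 1.5-fold.

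Fau encodes a ubiquitin-like protein fused to a small subunit protein. It read 12.45, 13.27, 12.60, 12.57 and 12.72 in C57Bl/6, 13.10, 13.31, 13.17, 13.38 and 12.59 in B6C3F1, and 12.72, 13.27, 13.13, 13.08 and 13.36 in C3H. The arrays overlapped, with the same outlying array in each strain as for Rps15. The cross differed from C57Bl/6 by 0.39 (adjusted p = 0.171). Rps27a, the other such fusion, was not analysed here.

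Of 11 close relatives of core proteins in a list, 6 were measured, and 0 passed in any of the 4 limma contrasts. They were Rpl3l, Rpl7l1, Rpl22l1, Rpl39l, Rps4l and Rps27l. Rpl3l read 13.51, 13.73, 13.57, 13.46 and 13.39 in C57Bl/6, 13.56, 13.50, 13.42, 13.65 and 13.15 in B6C3F1, and 13.76, 13.67, 13.83, 13.65 and 13.67 in C3H. The C3H arrays were close together and overlapped with C57Bl/6 through its replicate 2. The difference from C57Bl/6 was 0.19 (SE 0.09, adjusted p = 0.201). Its core relative Rpl3, and the pair Rpl10 and Rpl10l, were not analysed here.

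Rpl22, whose product also binds RNA outside the ribosome, and its relative Rpl22l1 differed between the parents by 0.16 (adjusted p = 0.469) and 0.29 (adjusted p = 0.331). Rps27l, a relative of Rps27 known as a p53 target, had a difference of 0.49 (95% interval 0.01 to 0.97, adjusted p = 0.171), and Rps27 one of -0.15 (-0.81 to 0.51, adjusted p = 0.805). Rpl39 and its relative Rpl39l, which is best known from the testis, differed by -0.28 (adjusted p = 0.525) and 0.05 (adjusted p = 0.961). The wide intervals of Rps27, Rpl39 and Rpl39l leave a 1.5-fold difference possible in both directions for Rpl39l, and toward a lower level in C3H for Rps27 and Rpl39.

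The members have 107 probe sets with 1 symbol, and 24 members have several. Tested singly in a limma fit of all 27019 probe sets above the filter, 96 of these could be tested and 7 were higher and 4 lower in C3H than in C57Bl/6, or 11.5%, against 12.7% of all probe sets. Among 100 tested probe sets that list a ribosomal protein gene with other symbols, 15 were higher and 5 lower (20%). These are the only sets of 31 ribosomal protein symbols that are not among the members here. For 3 genes, named like the others of this comparison after their values were seen, another set differed by over 2-fold between the parents where the brightest set did not pass. The second set of Rps9, a protein of the small subunit body, read 12.33, 12.62, 12.59, 12.17 and 13.003 in C57Bl/6, 13.07, 12.10, 11.89, 12.20 and 12.65 in B6C3F1, and 7.13, 8.001, 7.91, 8.63 and 7.74 in C3H. The C3H arrays lay far below all others, and the difference was -4.66 (adjusted p = 7.61e-12 over all probe sets). This second set belongs to the _x_at class, whose probes can match other transcripts. The brightest set of Rps9 differed by 0.27 (adjusted p = 0.243 in the same fit). In the cross the second set was 2.17 from the midparent and close to C57Bl/6.

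The second set of Rps3, a protein of the small subunit entry site that also has a role in DNA repair, read 8.99, 8.86, 9.00, 9.13 and 8.93 in C57Bl/6, 8.34, 8.68, 8.47, 8.15 and 8.56 in B6C3F1, and 6.996, 6.69, 7.39, 8.01 and 7.56 in C3H. The 3 groups did not overlap, and the parental difference was -1.65 (adjusted p = 3.21e-06 over all probe sets). The brightest set of Rps3 differed by 0.05 (adjusted p = 0.781). The second set of Rps7, also of the _x_at class, differed by 1.04 (adjusted p = 0.019) and its brightest set by -0.17 (adjusted p = 0.224). Smaller differences in a set other than the brightest were called for Rpl13a (0.44), Rpl27 (0.47), Rpl35 (0.43) and Rpl7l1 (-0.46). Which probe set reports each transcript was not tested, nor was whether its probes match both strains alike.

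**Figure D3:**
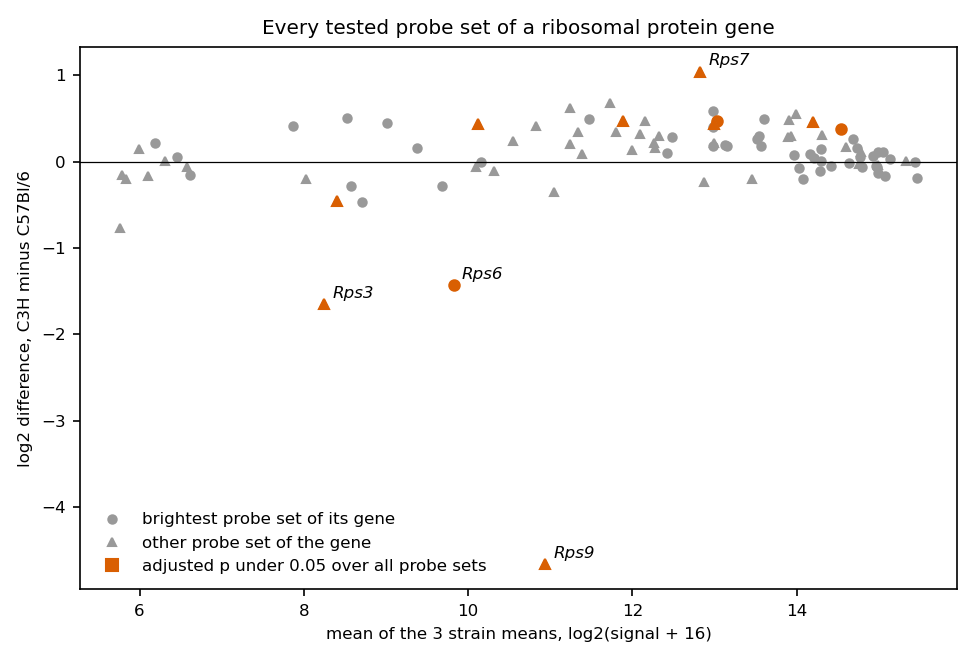
Log2 difference of C3H minus C57Bl/6 (y axis) against mean log2 signal over the strains (x axis) for the 96 tested single-symbol probe sets of members; circles are the brightest set of a gene, triangles its other sets, and orange marks an adjusted p under 0.05 over all probe sets. The labelled triangles of Rps9 (-4.66), Rps3 (-1.65) and Rps7 (1.04) lie apart from the other sets, as does the brightest set of Rps6 (-1.43).

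Within strains the members varied less from mouse to mouse than most genes. The pooled standard deviation over the arrays of a strain had a median of 0.21 for members and 0.26 for all genes tested. Bright probe sets vary less, so that the values were also set beside genes of like signal. Among genes of mean 14 or more the medians were 0.155 for 24 members and 0.163 for 291 genes in all. Between 10 and 14 they were 0.234 for 15 members and 0.175 for all, and under 10 they were 0.387 for 11 members and 0.331 for all. The lower spread over the whole set was therefore not present within the lower signal ranges.

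By their brightest sets, the steadiest members were Rps3 (0.10), Rps4x, the X-linked form of a small subunit protein (0.10), Rplp0 (0.11) and Rps7 (0.11). This did not hold for the other tested set of Rps7 (0.57) or that of Rps3 (0.32). The brightest set of Rps7 ranged from 15.17 to 15.21 in C57Bl/6, from 14.79 to 15.20 in B6C3F1 and from 14.90 to 15.19 in C3H. The most variable were Rpl39l (0.82), Rpl12, a protein at the base of the stalk (0.64), Rpl37a (0.52) and Rps27 (0.51). Rpl39l ranged from 4.32 to 7.30 within B6C3F1 alone, and Rpl12 spanned 4.64 to 6.73 in C57Bl/6. Rpl39l, Rpl12 and Rps27 were near the dim filter. Rpl37a was not: it read 12.25, 13.37, 12.21, 12.49 and 12.50 in C57Bl/6, 13.26, 13.66, 13.47, 13.60 and 12.24 in B6C3F1, and 12.30, 13.23, 13.21, 13.47 and 13.50 in C3H. The same array stood against its strain in each group as for Rps15 and Fau.

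**Figure D4:**
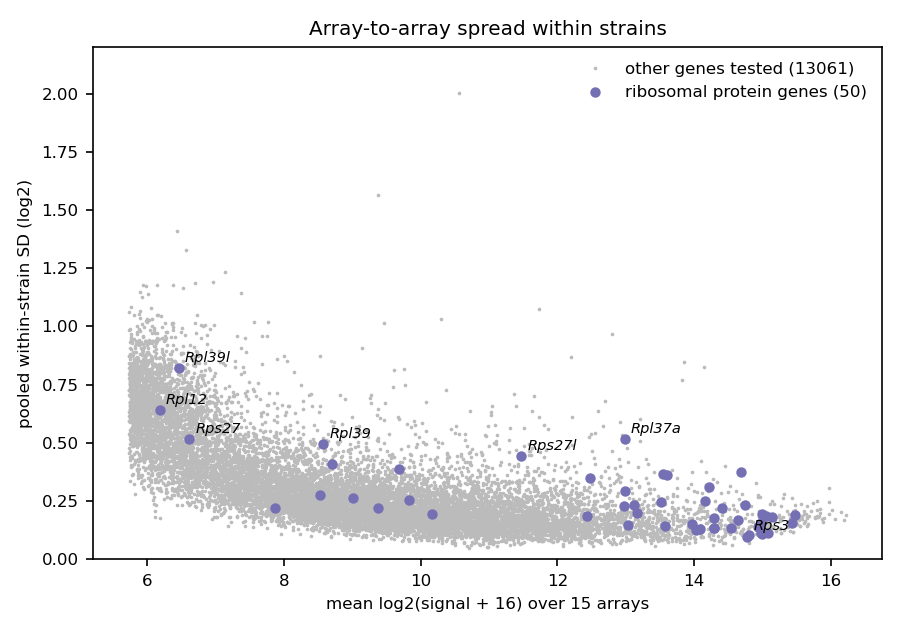
Pooled within-strain standard deviation (y axis, log2) against mean log2 signal over 15 arrays (x axis), with purple points for the 50 members and grey points for all other genes tested. Members of mean 14 or more sit among the other bright genes, with Rps3 lowest at 0.10, and Rpl39l is highest among members at 0.82.

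The members deviated together from array to array. The member level of an array was taken as the median, over the 50 members, of the deviation from the strain mean. It was 0.22 on C57Bl/6 replicate 2, where 43 of 50 members were above their strain mean, and 0.16 on B6C3F1 replicate 2, where 45 were. It was -0.26 on C3H replicate 1, where 7 were above, and -0.21 on B6C3F1 replicate 5, where 9 were. On C3H replicate 5 it was 0.17, with 42 above. The median over all genes tested stayed between -0.01 and 0.03 on every array. That over 267 non-member genes of mean 14 or more moved further, from -0.20 on B6C3F1 replicate 1 to 0.13 on C3H replicate 5. For these bright genes it was 0.09 on C57Bl/6 replicate 2, -0.07 on B6C3F1 replicate 5 and -0.08 on C3H replicate 1. The 3 arrays that stood against their strains in Rps15, Fau and Rpl37a were thus those of C57Bl/6, B6C3F1 and C3H with the member level farthest from 0.

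Without the centring on strain means the member level was -0.05 ± 0.12 (SD, n = 5) in C57Bl/6, 0.06 ± 0.16 in B6C3F1 and 0.03 ± 0.16 in C3H, so that the strains overlapped. The standard deviation within strains was larger than the distance between the strain means.

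**Figure D5:**
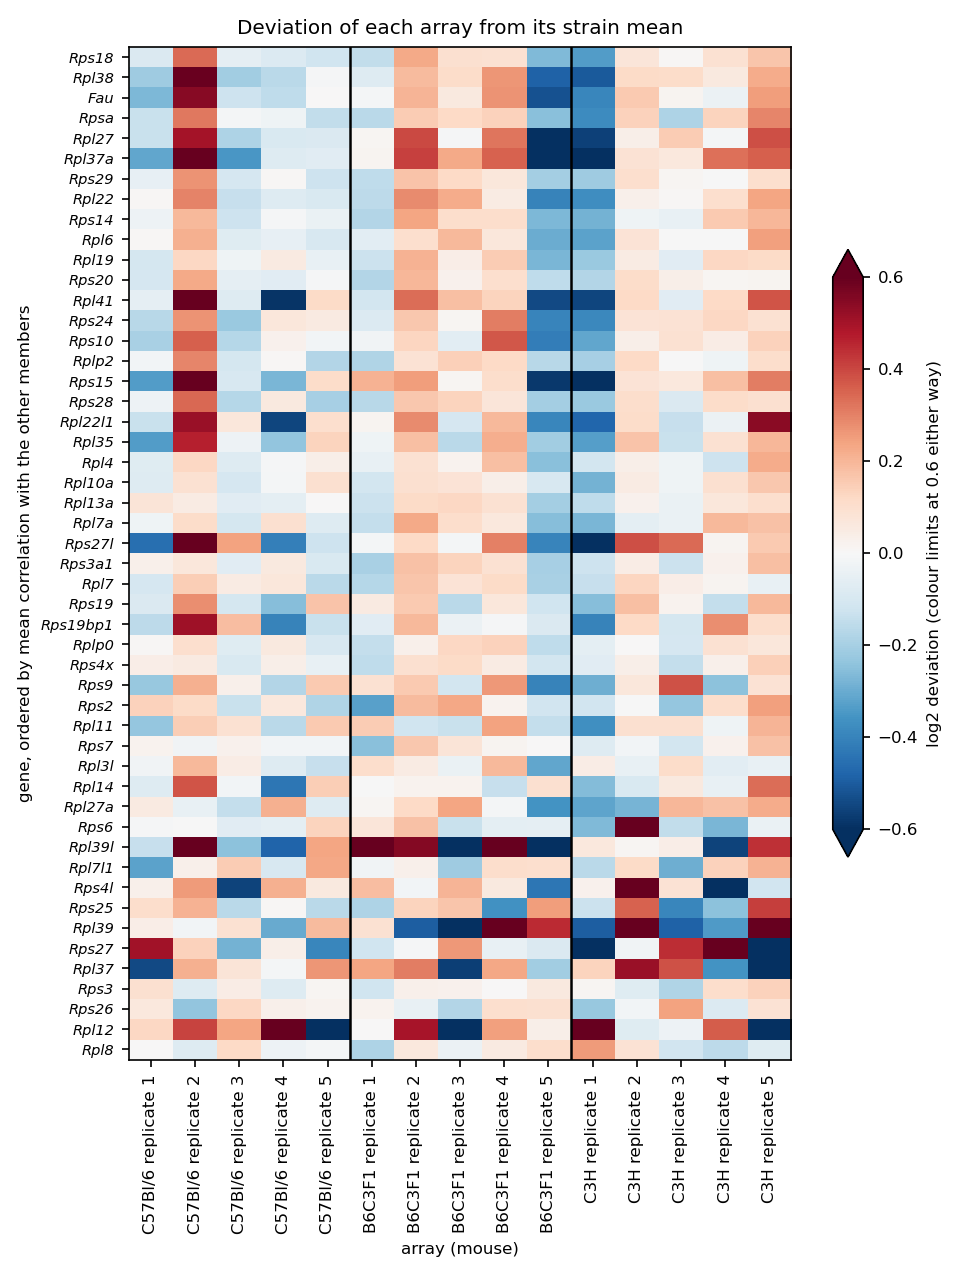
Heat map of the log2 deviation of each array (columns, 5 per strain, black lines between strains) from its strain mean for the 50 members (rows, ordered by mean correlation with the other members); red is above and blue below the mean, with colours capped at 0.6. The columns of C57Bl/6 replicate 2 (red in most rows), B6C3F1 replicate 5 and C3H replicate 1 (blue in most rows) stand out in the upper rows, and the lowest rows, from Rps3 to Rpl8, are those with a mean correlation below 0.

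After removal of strain means, the mean correlation between pairs of members over the 15 arrays was 0.39, against 0.002 for pairs of all genes, and 1005 of 1225 pairs (82.0%) were above 0. The points share arrays, scaling and labelling, and the value is a description. It was 0.31 within C57Bl/6, 0.40 within B6C3F1 and 0.42 within C3H. It was 0.608 among members of mean 14 or more, 0.575 among those between 10 and 14 and 0.055 among those under 10. Other bright genes also moved together: 267 non-member genes of mean 14 or more had a mean correlation of 0.397, and the 8 cardiomyocyte markers one of 0.804. Members and cardiomyocyte markers correlated at 0.237 on average.

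Not all members followed the rest. The highest mean correlations with the other members were those of Rps18 (0.604), Rpl38 (0.590) and Fau (0.588). The lowest were those of Rpl8 (-0.251), Rpl12 (-0.098), Rps26 (-0.094) and Rps3 (-0.013). Of the members called between the parents, Rps26 was thus one that did not share the array-to-array pattern. Rps25 (0.151) and Rps6 (0.189), both of mean under 10, were also low, while Rps20 was at 0.565. Rps18, Rpl38 and Rpl8 are named with their values already known.

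Measures of RNA and labelling also differed among arrays. The Gapdh 3 prime over 5 prime ratio, which rises as RNA is shortened, was 0.85 ± 0.24 (log2, SD, n = 5) in C57Bl/6, 0.90 ± 0.21 in B6C3F1 and 0.60 ± 0.26 in C3H. The mean log2 signal of 12 poly-A control probe sets was 8.69 ± 0.60, 8.70 ± 0.15 and 9.34 ± 0.64. On the arrays with the most extreme member level the Gapdh ratio was 1.02 (C57Bl/6 replicate 2), 0.69 (B6C3F1 replicate 5) and 0.53 (C3H replicate 1). Rps6, Rps26 and Rps20 passed between the parents with either measure as a covariate, and Rps25 did not.

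Markers of other heart cells differed between strains too. The counts below are between the parents, where 15.7% of all genes passed in limma. Atrial markers were higher in C3H for 1 of 3 tested (Myl4, an atrial myosin light chain, 1.16). The list means, over 4 genes with Sln below the filter among them, did not overlap. They were 8.47 to 9.37 on C3H arrays and 8.004 to 8.22 on C57Bl/6 arrays. Endothelial markers were lower in C3H for 3 of 8 and higher for 0, with list means of 10.29 to 10.70 on C3H arrays and 10.73 to 11.05 on C57Bl/6 arrays. Fibroblast markers were higher for 3 of 7, with 10.79 to 11.78 in C3H, 11.47 to 11.72 in B6C3F1 and 10.61 to 11.45 in C57Bl/6, so that the B6C3F1 and C57Bl/6 arrays did not overlap. Of 7 macrophage markers 1 was higher and 1 lower, the 1 red cell marker tested was lower, and 1 of 2 Schwann cell markers was higher, while 0 of 3 smooth muscle and 0 of 1 lymphocyte markers passed in limma. Of the cardiomyocyte markers 0 of 8 passed in limma, with 15.39 to 15.79 in C3H and 15.56 to 15.99 in C57Bl/6. Adipocyte markers were below the filter (0 of 2 above it). The part of these differences in the results for the ribosomal protein genes was not tested.

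The other genes of translation were given the same fit, and their called members moved in both directions between the parents. Of 13 elongation and termination factors tested, 1 was higher in C3H (Eef2k, the kinase that inhibits elongation factor 2, 0.45) and 1 lower (Etf1, a release factor, -0.25). Of 35 initiation factors, 4 were higher and 3 lower. Among them were Eif6, which keeps the subunits apart (0.48), Eif1a, which acts in scanning (0.46), Eif5, which acts in start codon recognition (-0.59), and Eif2s3x, an X-linked subunit of the factor that brings the initiator tRNA (-0.55).

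Of 69 ribosome biogenesis genes tested, 3 were higher and 7 lower in C3H. The largest differences were in Polr1b (-1.37) and Polr1a (-1.28), the large subunits of RNA polymerase I, in Utp18, a factor of small subunit processing (1.31), and in Riok2, a kinase of late small subunit maturation (-1.23). Riok2 in the cross was at the C57Bl/6 level and 0.61 from the midparent (adjusted p = 0.00914). Of 25 mTORC1 and TOP messenger RNA regulators, 0 were higher and 2 lower: Rraga, a Rag GTPase of amino acid sensing (-0.95), and Akt1s1, an mTORC1 inhibitor (-0.80). Btf3, which binds nascent chains at the ribosome, was higher in C3H (0.46) and in the cross (0.45) than in C57Bl/6, the only one of 4 ribosome-associated genes to pass. The shares called in the larger lists were 10 of 69 for biogenesis and 7 of 35 for initiation, or 14.5% and 20%, near the 15.7% of all genes. With all arrays the corresponding share was 8% for the ribosomal proteins and also 8% for the mTORC1 and TOP messenger RNA regulators. The difference between these shares was not tested.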

How the data were processed

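Heart apex RNA from 15 mice (5 per strain) was hybridised to Affymetrix mouse arrays after labelling of 50 ng in 2 amplification cycles, per the labels. The deposited values are log2 values. The submitters' processing notes name MAS5, and its version and the genome build are not given in the sources used here. The log2 step and the scaling were read from the values.

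From the deposited log2 values x, log2(signal + 16) was computed with the signal as 2 to the power x, which understates differences of dim genes. Of 45096 probe sets, 34940 carry 1 gene symbol, 932 several, 9160 none given, and 64 are controls; 34736 of the single-symbol probe sets matched the gene table and 0 symbols changed. A gene was represented by its brightest probe set. Genes under the 40th percentile of probe set means (5.74) were left out, which kept 13111 of 18190. Of the members, 15 rest on an _x_at and 2 on an _s_at set, and 31 member symbols occur only on the 110 probe sets with several symbols, which were used only where stated.

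Strains were compared with limma 3.58.1 in R 4.3.3 (lmFit, eBayes with an intensity trend), all 15 arrays in one fit, with Benjamini-Hochberg adjustment over 13111 genes. Every adjusted p is from such a fit. Precision is limited by the 5 arrays per strain. The labels give 1 mouse per array. The labels give no hybridisation batch, and sample numbers run in 1 block per strain, so that handling order and strain cannot be told apart. The script was tested on simulated data. Members, lists and the rule for naming genes were chosen with earlier results of these data known. The rule names members that passed, the 4 most and 4 least variable, stalk, fusion and paralogue genes, Rpsa and Rps6, and up to 4 called genes of each other list. Testing each probe set singly was added after the data were seen, as was the correlation of members under other settings. Figures were drawn with matplotlib 3.10.9.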

Additional observations from a re-analysis of the deposited data

Results flagged for a closer look

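Values were looked at for an array that stood apart from the other 4 of its strain by Dixon's ratio (above 0.71 for 5 arrays), in 54 groups of arrays. Chance alone sets an array apart in about 1 in 20 groups, and here it was 8 of 54. The groups share arrays, members deviate together and the member level is taken from them. The 8 are therefore not separate events, and no excess over chance can be read from them. C57Bl/6 replicate 2 stood apart in 4 of them. It was high in Rps20 (14.54, the next 14.31), high in Rpsa (14.77, the next 14.44), low in Rps26 (12.54, the next 12.79) and high in the member level taken from the mean over all arrays rather than over the strain (0.17, the next -0.07). C3H replicate 2 was high in Rps6 (9.71, the next 8.95). C3H replicate 1 was low in Rps27l (10.70, the next 11.61). C3H replicate 4 was high in the Gapdh 3 prime over 5 prime ratio (1.06, the next 0.56) and in the poly-A control signal (10.48, the next 9.22). These arrays were kept in the reported fit of every comparison.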

How the results depend on the processing

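Of the members, 4 passed between C3H and C57Bl/6. The count was 7 when arrays were centred on their medians (14%, against 14.4% of all genes) and 7 with array weights (14%, against 17.5%). It was 3 to 10 when each array was left out in turn. With every probe set tested, 10 members had at least 1 set called (without Rps25). That count is unlike the others, which use 1 set per gene, and 11.5% of member sets were called, against 12.7% of all sets. Between B6C3F1 and C57Bl/6 the member count was 0. It became 1 after quantile normalization (2%, against 4.17% of all genes), 1 with a poly-A covariate (2%, against 4.24%) and 8 with array weights (16%, against 10%). It was 2 with only the 2 groups compared, where the share of all genes is not given here. With every probe set it was 3 members, or 4.17% of member sets against 2.99% of all sets. Without single arrays it was 0 to 7, and the 7 were 14% of members against 6.3% of all genes. Between B6C3F1 and C3H it was 1, 3 with every probe set (3.12% of member sets, against 4.92%), and 1 without each array. Against the midparent it was 0, 1 with every probe set (1.04% of member sets, against 0.603%), and 0 to 1 without single arrays. Over all genes, array weights raised the count between B6C3F1 and C57Bl/6 from 502 to 1314, and leaving out arrays gave 272 to 826; against the midparent the 83 became 254, and 41 to 212. Centring lowered the 502 to 315, omitting the trend lowered it to 304, and the poly-A covariate lowered the B6C3F1 against C3H count from 813 to 390.

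With replicate number as a block, 1 member (Rps20, adjusted p = 0.049) passed between B6C3F1 and C57Bl/6, and the other member counts were the same as without it. The numbers did not pair the samples: same-numbered arrays correlated at -0.06 to 0.13, with 2 of 15 pairs over 0.1, and 4 of 15 arrays were closest to their own number.

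Without single arrays the member median ran from 0.05 to 0.18 (C3H minus C57Bl/6), 0.06 to 0.17 (B6C3F1 minus C57Bl/6), -0.03 to 0.11 (B6C3F1 minus C3H) and 0.04 to 0.10 (midparent). The median within-strain standard deviation of members (0.208) was 0.185 after quantile normalization and 0.226 after centring, and the range over arrays of the member level, here not centred on strain means (0.485), was 0.294 after quantile normalization. The mean correlation of members (0.387) was 0.243 after quantile normalization, 0.472 after centring, where all genes had 0.104, and 0.291 without _x_at and _s_at sets. The cause of these changes was not tested. The pseudocounts 1 and 64, both other dim filters, the Gapdh covariate, leaving out _x_at and _s_at sets and eBayes without a trend moved no member count by over 1.5 times. The midparent contrast could not be run with only 2 groups.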
